A study of Saccharomyces cerevisiae with 54 samples.

Results

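I14 is an isolate of the budding yeast Saccharomyces cerevisiae that the study lists as collected from vineyard soil in Italy. Its transcripts were measured on the 3 arrays labelled I14 against DBY8268, out of 54 arrays in the series, and those 3 arrays are the subject here. The 16 strains it is set against were the vineyard isolates B1, M8, M22, PR and RM11a, the oak isolates YPS163 and YPS1009, the sake strains K1 and K9, the clinical isolates YJM308 and YJM789, YJM269 and Y12 from other fermentations, and the natural isolates SB, Y1 and Y10. They had 3 arrays each, or 4 for M8, Y10 and YPS163. RM11a and YJM789 are haploid, and the study's strain list gives no ploidy for I14. Every culture was grown untreated in the rich glucose medium YPD to early log phase, and the design text describes replicate cultures as separate. On each array, RNA of 1 strain was hybridized together with RNA of DBY8268, a laboratory diploid derived from S288c that is ho/ho and GAL2/GAL2 and lacks URA3 function (ura3-52/ura3-delta). I14 is represented by a single isolate.

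Wild and domesticated isolates of budding yeast differ from the reference strain in transposon load, in genes near the chromosome ends, in the introns of their mitochondrial genomes and in the setting of nutrient uptake systems. A transcript difference between strains can come from a regulator, from the promoter, from the number of gene copies, or from a sequence that no longer pairs with an oligonucleotide designed on the reference strain. These arrays cannot tell those apart. Values are log2 ratios of a strain over DBY8268, so that 1 is a factor of 2, and a difference between I14 and other strains is a difference of 2 such ratios.

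Of 6264 genes in the table, 5039 had a value on all 3 I14 arrays, 612 on 2 arrays, 353 on 1 array and 260 on none. The I14 arrays held 5373, 5748 and 5573 values. They correlated across genes with r of 0.83, 0.80 and 0.87, and after subtraction of each gene's mean over the other strains with r of 0.60, 0.50 and 0.62. These are correlations across genes, which are not independent replicates. The expected contribution of array error to the strain mean was smaller for I14 than for any of the other 16 strains (0.170 on the log2 scale, root mean square over 3822 genes). In I14 the strain RNA carried the same dye on arrays 1 and 2 and the other dye on array 3, and array 3 also came from another slide series, so dye and slide series cannot be told apart within this strain.

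The main comparison asked which genes stood apart in I14 from a typical strain. The mean of the I14 arrays was set against the mean of the other 16 strain means, with 1 variance per gene over all arrays (limma, Benjamini-Hochberg adjustment). A gene was called at an adjusted p under 0.01. Of 5497 genes tested, 35 were called (0.637%), with 18 higher in I14 (0.327%) and 17 lower (0.309%). The genes higher in I14 included transporters of zinc, phosphate and sodium, 2 phospholipases, a serine dehydratase and members of subtelomeric gene families. The genes lower in I14 included a stress-induced reductase, a mitochondrial peroxiredoxin, regulators encoded on chromosome IX, 2 mitochondrial intron reading frames and 2 retrotransposon genes. For all 35 genes, every I14 array with a value lay on the same side of the mean of the other strains. I14 lay above every other strain mean in 13 of the 35 genes, below every other in 10, and inside their range in 12. In 24 of the 35 genes the difference could also be taken within each dye orientation, and it kept its sign in all 24. When 1 I14 array was left out, 12 genes (without array 1), 8 (without array 2) or 14 (without array 3) were still called. ZRT1, SDL1, YLR179C, PRM8, MST27 and GRE2 were called in each of these 3 cases, and SMU2 and YER186C in the 1 case that could test them. With the variance taken only from the I14 arrays and the spread of strains, limma called 0 genes (864 at an unadjusted p under 0.05). The plot of the called genes shows each array beside the other strains.

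**Figure D1:**
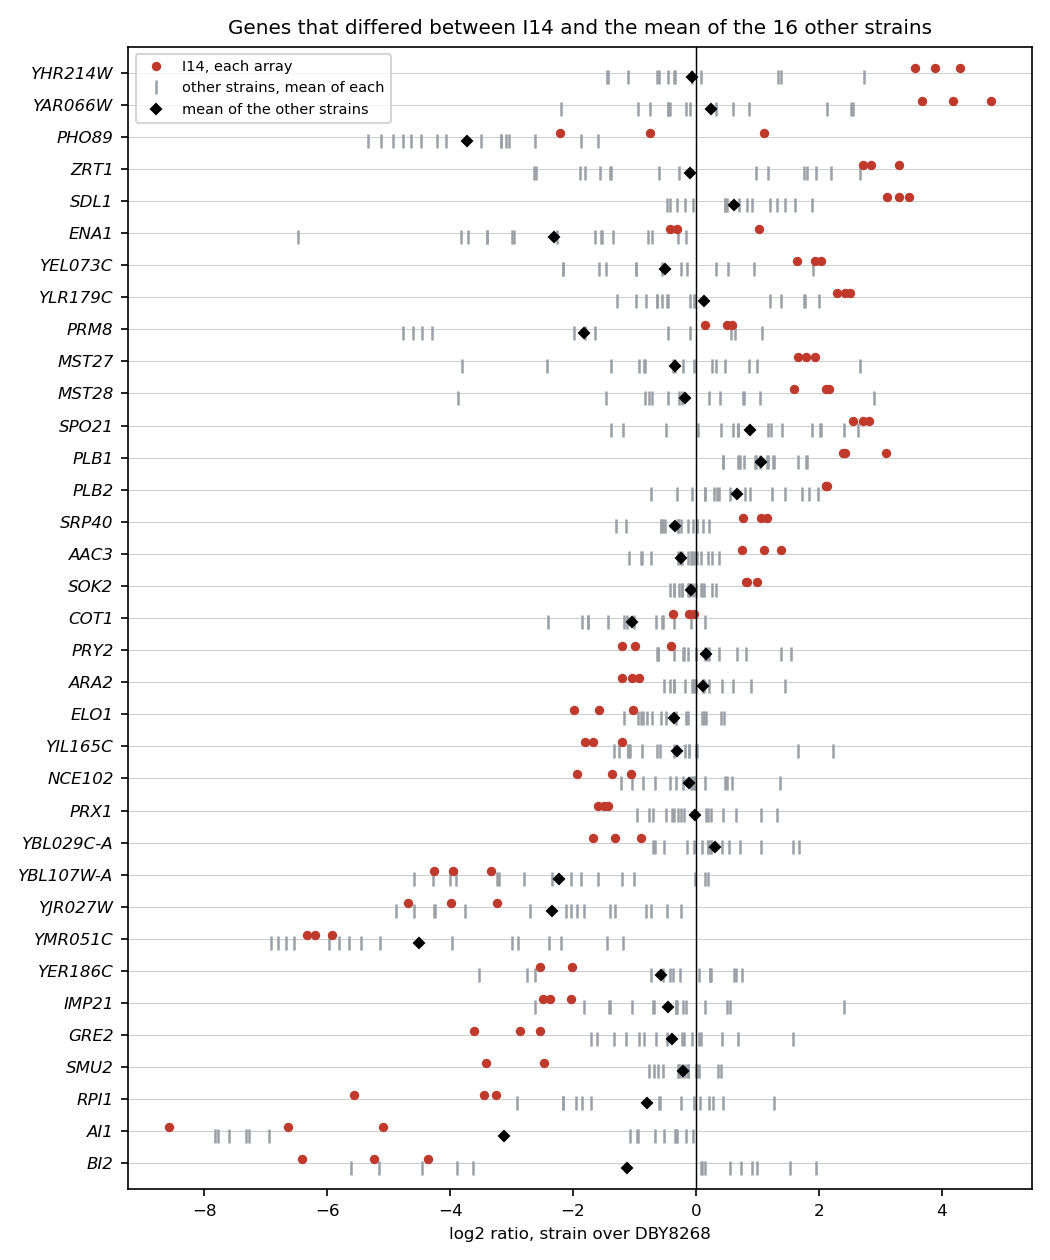
Log2 ratio of strain over DBY8268 for the 35 called genes. Red points are the single I14 arrays, grey ticks the means of the other 16 strains and black diamonds the mean of those means. YHR214W, SDL1, GRE2 and SMU2 are examples in which all I14 arrays lie outside the other strains, while AI1, BI2 and YMR051C lie among the lower of the other strains.

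Most genes were close to the typical strain. The I14 mean lay within 0.5 of the mean of the other strains for 83.7% of the genes tested and within 1 for 96.1%, and 216 genes differed from it by more than 1. Against DBY8268, 478 genes differed by more than 1.

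**Figure D2:**
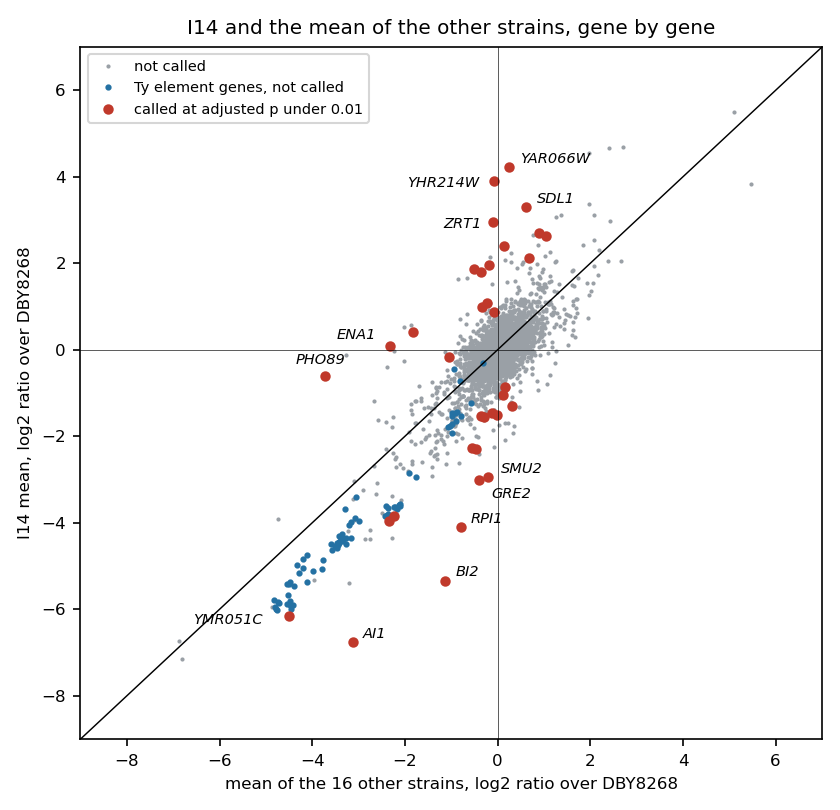
I14 mean (vertical axis) against the mean of the other 16 strains (horizontal axis), both as log2 ratio over DBY8268, for the 5497 genes tested. Red points are called genes, blue points are Ty element genes that were not called, and the diagonal marks equality. Most genes lie near the diagonal, and nearly all Ty genes lie below it.

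A stricter question is whether I14 lies outside the spread of the other strains among themselves. A second test therefore used the 17 strain means and took its variance from the differences between strains. It called 1 of 5497 genes (0.0182%), SMU2, with an adjusted p of 0.00155, and 102 genes had an unadjusted p under 0.05. Of the 35 genes called in the main comparison, 16 had an unadjusted p under 0.05 in this second test. Only for SMU2 is a difference particular to I14 shown by it, on 2 I14 arrays, and SMU2 could not be tested when either of these was left out. The others are differences from the mean of these 16 strains, some of which vary as widely among themselves.

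Of the genes higher in I14, 4 encode ion transporters, ZRT1, COT1, PHO89 and ENA1. ZRT1 encodes the high-affinity zinc transporter of the plasma membrane. Its log2 ratios on the I14 arrays were 2.85, 3.30 and 2.72, against a mean of −0.10 over the other strains, whose means ran from −2.64 in K1 to 2.67 in PR. All 3 arrays were above every other strain mean, though that of PR was nearly as high. The means of M8, B1, SB and M22 were also high (2.195, 1.95, 1.81 and 1.76), while the median of the other strains was −0.44. The difference was 3.06 ± 0.45 (standard error; adjusted p = 6.05e-05), and I14 exceeded 9 of the 16 strains in tests strain by strain. COT1, which moves zinc and cobalt into the vacuole, had −0.37, −0.12 and −0.03 in I14, against a mean of −1.04. I14 stood close to DBY8268 here while most other strains were below it (difference 0.87 ± 0.18, adjusted p = 0.00569), and it was not called when any 1 I14 array was left out (adjusted p from 0.022 to 0.0948). Of the 11 tested genes on a list of the zinc regulon, the targets of the zinc-responsive activator Zap1 and related transporters, these 2 were higher and none was lower, and the median difference of the list was −0.05, against −0.02 over all genes, and 0.02 to 0.13 when 1 I14 array was left out. ZAP1 itself had a mean of −0.97 in I14 and −0.92 in the others, and ZPS1 (−0.75, adjusted p = 0.642) had the lowest difference on the list.

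PHO89 encodes a cotransporter of sodium and phosphate. Its values on the I14 arrays were 1.11, −0.74 and −2.22, against a mean of −3.73 over the other strains (range −5.34 in Y1 to −1.59 in K1). The I14 arrays were spread over more than 3 log2 units, and the lowest of them fell within the range of the other strains. The difference was 3.11 ± 0.66 (adjusted p = 0.00645), and it was no longer called without I14 array 1 (2.25, adjusted p = 0.306) or array 2 (3.17, adjusted p = 0.0636). Of the 25 tested genes of the phosphate regulon, PHO89 alone was called. The median difference of the list was 0.18, against −0.02 over all genes. The vacuolar polyphosphate polymerase genes VTC1, VTC3 and VTC4, named here after their values were seen, had their highest strain mean in I14 without being called (differences of 0.61, 0.72 and 0.57, adjusted p of 0.477, 0.431 and 0.286).

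ENA1 encodes an ATPase that exports sodium, and it lies in a tandem array with the near-identical ENA2 and ENA5. How far their signals are shared was not tested. ENA1 and ENA5 differed within some strains, as in M22 (−3.715 and 0.09) and K1 (−0.78 and −4.89). The I14 arrays gave 1.02, −0.31 and −0.42 for ENA1, against a mean of −2.31 over the other strains. All 3 arrays were near or above the level of DBY8268, and 2 of them were below the highest other strain, Y1 (−0.16). The difference was 2.41 ± 0.53 (adjusted p = 0.00842), and it was not called when any 1 I14 array was left out (1.95 to 2.67, adjusted p from 0.0387 to 0.23). ENA5 differed by 2.56 (adjusted p = 0.0114) and ENA2, with 2 values in I14, by 1.99 (adjusted p = 0.351). Against DBY8268 itself none of the 3 was called in I14 (adjusted p of 0.955, 0.863 and 0.679 for ENA1, ENA2 and ENA5), while 7 of 16 other strains were below −2 for ENA5 and 9 of 15 for ENA2. Of the 6 genes on the list of sodium pumps and related genes, ENA1 was called and 5 were higher at an unadjusted p under 0.05, against 3.58% of all genes. The median difference of the list was 1.24, and 0.56 and 0.54 without I14 arrays 2 and 3.

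Enzymes that act on phospholipids stood out next. PLB1 and PLB2 encode phospholipases B, secreted or cell wall enzymes that remove fatty acids from phospholipids. PLB1 had 3.09, 2.40 and 2.42 on the I14 arrays, against a mean of 1.05 and a range of 0.44 to 1.81 over the other strains. PLB2 had 2.11, 2.14 and 2.11, against a mean of 0.67 and a range of −0.73 to 1.98. In both genes all I14 arrays lay above every other strain mean, and the differences were 1.58 ± 0.28 (adjusted p = 0.000577) and 1.45 ± 0.26 (adjusted p = 0.00084). PLB1 was no longer called without array 1 (1.36, adjusted p = 0.0342), and PLB2 when any 1 array was left out (adjusted p from 0.0142 to 0.0278). PLB3, another gene of the family named here after its values were seen, had 0.16 in I14 and 0.28 in the other strains on average. The 19 tested genes of inositol and phospholipid synthesis and turnover had a median difference of −0.07 (−0.19 to −0.02 when 1 I14 array was left out), with these 2 called higher and none lower, and CHO1, the phosphatidylserine synthase, had the lowest difference on the list (−0.63, adjusted p = 0.276). ELO1, a fatty acid elongase, was lower, with −1.03, −1.57 and −1.99 in I14, against a mean of −0.36 (difference −1.17 ± 0.24, adjusted p = 0.00399, and 0.0636 and 0.153 without arrays 2 and 3). It was the only call among 16 tested genes of fatty acid synthesis and desaturation.

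Several single genes of differing roles were also higher in I14. SPO21, a component of the spindle pole body in meiosis, had 2.81, 2.72 and 2.56, against a mean of 0.88 in the others (difference 1.81 ± 0.34, adjusted p = 0.00288). It was the only call among 10 tested genes of meiosis and sporulation, and YJM789 had nearly the same level (2.65). The means of RM11a, M8, SB and PR were also high (2.41, 2.03, 2.02 and 1.89), and the lowest strain was YPS1009 (−1.375). AAC3, the mitochondrial ADP/ATP carrier used under low oxygen, had 1.38, 1.11 and 0.75, against −0.24 (difference 1.32 ± 0.23, adjusted p = 0.000667). SOK2, a transcription factor that acts in pseudohyphal growth, had 0.83, 0.99 and 0.82, against −0.08 (difference 0.96 ± 0.21, adjusted p = 0.00569). For AAC3 and SOK2 all I14 arrays exceeded every other strain mean, the highest of which were 0.37 and 0.32. The same held for SRP40, a nucleolar protein, with 0.76, 1.15 and 1.06 against a mean of −0.35 and a highest strain of 0.21. YLR179C, for which no role is given here, had 2.29, 2.51 and 2.42, against 0.14 (difference 2.27 ± 0.26, adjusted p = 2.51e-07). In tests strain by strain, I14 exceeded 11 of the 16 other strains for this gene. The means of M22, RM11a, M8 and PR were also high (2.01, 1.78, 1.755 and 1.39), and that of SB was likewise above DBY8268. All remaining strain means were below DBY8268, down to −1.28 in K9, and the median of the other strains was −0.28. The mean of 0.14 thus lay between these groups of strains. YEL073C, also without a role here, had 1.93, 2.04 and 1.65 in I14, against a mean of −0.51 and a highest strain of 1.90 (Y10). Except for YLR179C, and for AAC3 without array 3, the calls in this group were lost when any 1 I14 array was left out, with adjusted p of up to 0.0951 (SOK2 without array 2).

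Beside ENA1 and the PLB genes, 5 of the higher genes belong to duplicated blocks or families on chromosomes I, VII and VIII. YAR066W on chromosome I and YHR214W on chromosome VIII are a pair of this kind. YAR066W had 4.19, 4.80 and 3.68 on the I14 arrays, against a mean of 0.25 and a highest strain of 2.56. YHR214W had 3.89, 4.29 and 3.56, against −0.07 and a highest strain of 2.74, and both highest strains were Y10. All I14 arrays were above every other strain, and the differences were 3.97 ± 0.67 and 3.98 ± 0.68 (adjusted p of 0.00119 and 0.000872). Both lost the call when any 1 I14 array was left out, with adjusted p of up to 0.0409 and 0.0354. Their neighbours in these duplicated blocks, named here after their values were seen, included YAR062W with 1.65, 1.72 and 1.62 in I14, against a mean of −0.66 (difference 2.32, adjusted p = 0.0281), and YHR213W with 1.55 and 1.70 on 2 arrays, against −0.86 (2.49, adjusted p = 0.0924). The next genes outward, PHO11 and PHO12, did not share this level (I14 means of −3.08 and −2.54, other strains −2.61 and −2.21).

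The other 3 belonged to the DUP240 family of membrane proteins, which lie in clusters on chromosomes I and VII. MST27 had 1.79, 1.66 and 1.93 in I14, against a mean of −0.35 over strains that ran from −3.80 in YJM269 to 2.67 in YPS1009 (difference 2.14 ± 0.34, adjusted p = 0.000228). Its partner MST28 had 1.59, 2.17 and 2.11, against −0.18 (2.14 ± 0.37, adjusted p = 0.000872, and 0.0354 and 0.0206 without arrays 2 and 3). PRM8 had 0.14, 0.51 and 0.58, against −1.82 (2.23 ± 0.27, adjusted p = 0.000134). I14 lay inside the range of the other strains for all 3, being second in the order of strains for MST27 and MST28 and the fourth for PRM8. PRM9, the partner of PRM8, had 0.84, 0.80 and 0.11, against −1.86 (adjusted p = 0.0198). Signal cannot be assigned between such copies with confidence, and the 5 calls may not be independent measurements.

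Of the genes lower in I14, GRE2 encodes an NADPH-dependent methylglyoxal reductase that is induced by stress. Its values were −3.61, −2.87 and −2.53 in I14, against a mean of −0.40 and a lowest strain of −1.70 (YPS1009). All 3 arrays were below every other strain, the difference was −2.61 ± 0.35 (adjusted p = 7.33e-06), and I14 was lower than 12 of the 16 strains in tests strain by strain. PRX1, the mitochondrial peroxiredoxin, had −1.50, −1.43 and −1.59, against a mean of −0.02 and a lowest strain of −0.96 (difference −1.49 ± 0.26, adjusted p = 0.000577). It was the only call among 25 tested antioxidant enzymes, whose median difference was −0.12 (−0.05 without I14 array 3). NCE102, a membrane protein of eisosomes, had −1.94, −1.36 and −1.05, against −0.11 (difference −1.34 ± 0.26, adjusted p = 0.00248). ARA2, an arabinose dehydrogenase, had −1.04, −1.20 and −0.92, against 0.12, and PRY2, a secreted sterol-binding protein, had −1.20, −0.40 and −0.99, against 0.16. I14 had the lowest mean of the 17 strains in all 5 of these genes, although single arrays of NCE102 and PRY2 reached into the range of the others. YBL029C-A, of no role given here, was lower by 1.60 on the log2 scale (adjusted p = 0.000427), with an I14 mean of −1.30 against 0.31. YER186C was measured on 2 I14 arrays only (−2.53 and −2.02, against a mean of −0.56, adjusted p = 0.000577), and YBL107W-A had −3.33, −3.95 and −4.27, against −2.23 (adjusted p = 0.00645). For both genes I14 lay inside the range of the other strains, the thirteenth from the top, so that some strains were lower. Other strains ran from −3.525 in SB to 0.75 in RM11a for YER186C, and from −4.59 in M8 to 0.20 in RM11a for YBL107W-A. PRX1 and ARA2 lost the call when any 1 I14 array was left out (adjusted p of up to 0.0142 and 0.0409). NCE102 lost it without arrays 1 and 2 (0.122 and 0.0399), PRY2 without arrays 1 and 3 (0.111 and 0.0646), YBL029C-A without arrays 1 and 2 (0.022 and 0.0129) and YBL107W-A without any 1 array (up to 0.142).

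Chromosome IX held 5 of the 35 called genes, among 190 of its genes tested (2.63%, against 0.637% over all genes). Chromosomes II and XIII also held 5 called genes each (1.33% and 1.15%), and chromosome I held 2 (2.04%). On chromosome IX, 4 of the 5 lay within the 24 genes nearest to its left end in the order of the R64 gene table. SDL1 encodes a serine dehydratase whose reading frame is interrupted in the reference strain, with YIL168W as its other part. SDL1 had 3.46, 3.31 and 3.11 in I14, against a mean of 0.62 and a highest strain of 1.89 (M22). All I14 arrays were above every other strain, the difference was 2.67 ± 0.25 (adjusted p = 3.71e-08), and I14 exceeded 15 of the 16 strains in single tests. The neighbouring YIL168W, named here after its values were seen, had 1.52, 2.07 and 3.11, against 0.30 (difference 1.94, adjusted p = 0.0154). Next, 2 genes further in, YIL165C, part of a nitrilase gene that is also split in the reference strain, was lower in I14, with −1.81, −1.67 and −1.21 against a mean of −0.30 (difference −1.26 ± 0.26, adjusted p = 0.00645, and 0.0206 to 0.118 without 1 array). SMU2 lay 4 genes beyond it. It had values of −3.42 and −2.48 on 2 I14 arrays and none on array 1, against a mean of −0.21 and a narrow range of −0.77 to 0.41 over 16 strains. Both arrays were far below every other strain mean, the difference was −2.75 ± 0.32 (adjusted p = 1.56e-06), and I14 was lower than 16 of 16 strains in single tests.

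Between YIL165C and SMU2 lie NIT1, YIL163C and SUC2, the gene of the secreted invertase that splits sucrose. SUC2 had no value on any of the 3 I14 arrays, while 42 of the 51 arrays of the other strains had one. Only AYT1, which encodes an acetyltransferase and lies on chromosome XII, likewise lacked all I14 values among the genes with at least 2 values in at least 12 other strains. The same count for the other strains ran from 0 in B1, K1, Y12 and YJM308 to 447 in YJM789. A value can be missing because a spot was marked as poor in either channel, so a missing value gives no level. POT1, the next gene after SMU2, was at the typical level (I14 mean −0.12, others −0.08). Beyond it, IMP21, a transcriptional regulator of sugar use, had −2.38, −2.04 and −2.49 in I14, against a mean of −0.46 and strains from −2.63 in SB to 2.41 in YPS1009 (difference −1.84 ± 0.38, adjusted p = 0.00569, and 0.0409 to 0.0853 without 1 array). The fifth called gene of the chromosome, RPI1, lies elsewhere on its left arm and encodes a transcription factor that antagonises Ras signalling. It had −3.45, −5.57 and −3.26, against a mean of −0.80 (difference −3.30 ± 0.49, adjusted p = 0.00084). Array 2 was the lowest, and without it the difference was −2.56 (adjusted p = 0.0354). No shift of the whole chromosome was called. The median of its genes relative to the other chromosomes differed from the typical strain by 0.04, and none of 16 chromosomes was called in I14 by limma (smallest adjusted p = 0.186, for chromosome XI, which was also the only 1 with an unadjusted p under 0.05).

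**Figure D3:**
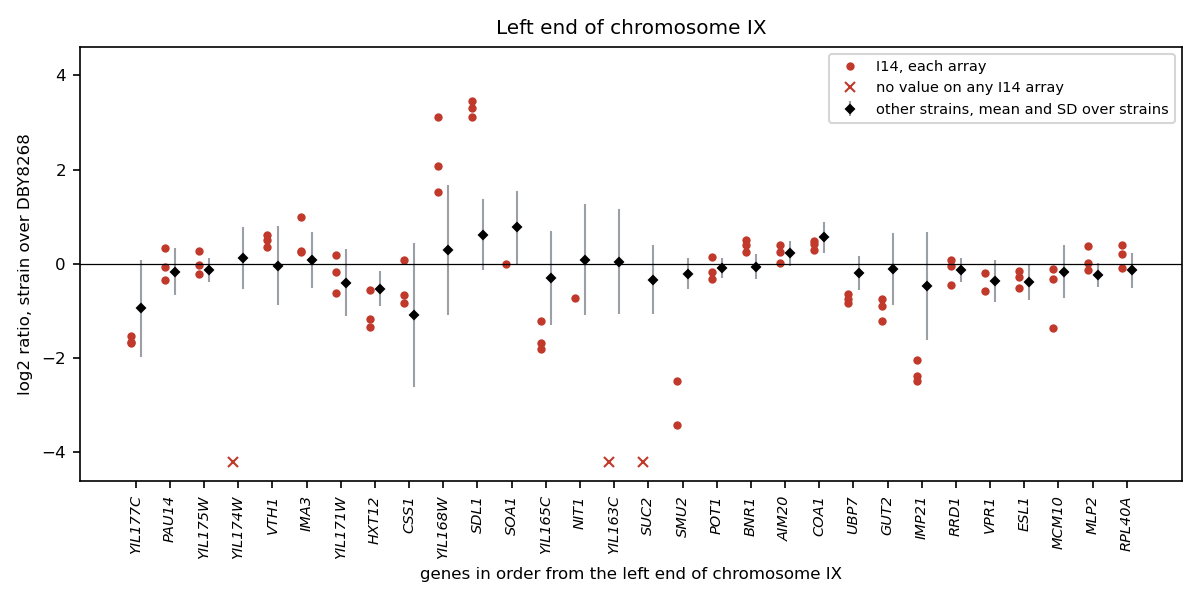
Genes in order from the left end of chromosome IX (horizontal axis) and their log2 ratio over DBY8268 (vertical axis). Red points are single I14 arrays, crosses mark genes with no value on any I14 array, and black diamonds with bars are the mean and SD over the other 16 strains. All I14 arrays of YIL168W and SDL1 lie above the mean of the other strains, and all those of YIL165C, SMU2 and IMP21 lie below it.

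The mitochondrial genome gave the largest negative differences. Several of its introns contain reading frames for maturases or homing endonucleases, and yeast isolates are known to differ in which introns they carry. AI1 is the first intron frame of COX1, and BI2 is an intron frame of COB. AI1 had −5.09, −8.57 and −6.64 in I14, against a mean of −3.13 (difference −3.64 ± 0.60, adjusted p = 0.000427). Array 2 was the lowest, and without it the difference was −2.74 (adjusted p = 0.0557). The mean of the others stands between 2 clusters, since 6 of the other strains were below −2 and 10 were at or above it. I14 lay with the lower cluster. BI2 had −5.24, −6.41 and −4.36, against −1.12 (difference −4.21 ± 0.83, adjusted p = 0.00359), and 5 of 14 other strains were likewise below −2. The BI2 call was lost when any 1 I14 array was left out (adjusted p from 0.0142 to 0.0974). Other intron frames in I14 differed among themselves. AI5_ALPHA had −4.11, −6.52 and −5.31, as did most strains (12 of 16 below −2), and SCEI, the endonuclease of the large ribosomal RNA intron, had −5.13, −5.86 and −5.18 (10 of 15 below −2). AI2, AI3 and AI4 averaged −0.26, −0.03 and −0.12 in I14, where 9 of 15, 8 of 16 and 9 of 16 other strains were below −2, and these 3 differences were not called (1.75, 2.21 and 3.14, adjusted p of 0.113, 0.0861 and 0.0626). BI3, a further intron frame of COB, had −1.91 and −1.29 on 2 I14 arrays, and none of 13 other strains was below −2. Of the exon sequences named next, none was called against the other strains. COX1 had a mean of 0.11 in I14 and 1.51 in the other strains (adjusted p = 0.0854), and COB, COX2, COX3, ATP6, ATP8, OLI1 and VAR1 all lay within the range of the other strains. Of 26 tested genes of the mitochondrial genome, 2 were lower (AI1 and BI2) and none higher at the threshold, with 5 lower and 3 higher at an unadjusted p under 0.05. Over all genes, 0.309% were lower and 0.327% higher at the threshold, and 7.46% and 3.58% at an unadjusted p under 0.05.

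**Figure D4:**
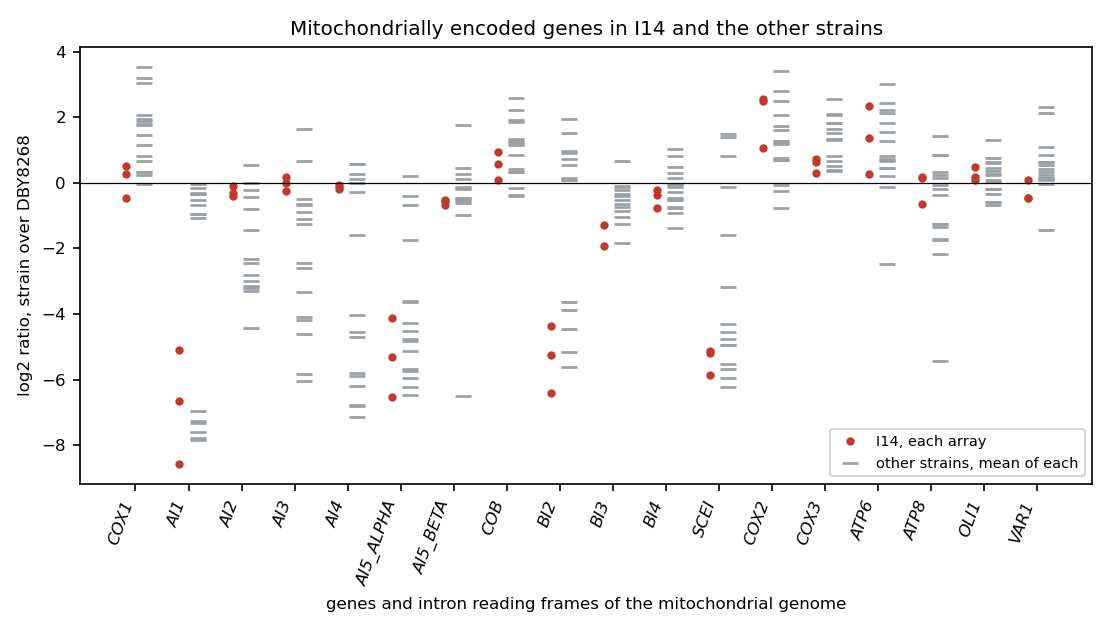
Log2 ratio over DBY8268 (vertical axis) for genes and intron reading frames of the mitochondrial genome. Red points are single I14 arrays and grey dashes the means of the other strains. AI1, AI5_ALPHA, BI2 and SCEI in I14 lie in the lower cluster of strains, and AI2, AI3 and AI4 lie in the upper part of theirs.

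Ty elements are the retrotransposons of yeast, and the laboratory background is known to carry many copies. All but 3 of the 80 Ty genes in the table were lower in I14 than the mean of the other strains, with a median difference of −1.06, against −0.02 over all genes. Of the 80, 2 were called (YJR027W and YMR051C), against 0.309% of all genes called lower. At the less strict adjusted p of 0.05, 20 were lower (0.946% of all genes), and 58 at an unadjusted p under 0.05 (7.46% of all genes). YMR051C had −5.92, −6.20 and −6.33 in I14, against a mean of −4.50 over strains between −6.91 in M22 and −1.19 in YJM308. YJR027W had −3.23, −3.99 and −4.68, against −2.33. Both calls were lost without I14 array 2 (adjusted p of 0.0636 and 0.0409) and without array 3 (0.18 and 0.0529), and that of YMR051C also without array 1 (0.0188). Set against the median of the other strains in place of their mean, YMR051C differed by −0.85 and was not called (adjusted p = 0.265). I14 ranked the thirteenth of 17 strains in both, so that several strains were as low or lower. The median difference of the 80 genes was −2.08 after all arrays had been scaled to equal spread. Ty copies share sequence, and the 80 genes are not independent measurements. The 8 helicase genes of the subtelomeric Y' elements, which are also near-identical, were all lower than the mean of the others, with differences from −0.93 to −0.59. None was called by limma at 0.01 (8 of 8 had an unadjusted p under 0.05, against 7.46% of all genes lower by that measure), and I14 ranked the fifteenth or sixteenth of the strains.

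Gene lists of metabolism gave shifts of small size in which no gene was called by limma. All 11 tested genes of the cytochrome bc1 complex and cytochrome c were below the mean of the other strains in I14, as were all 9 nuclear genes of cytochrome c oxidase, all 6 of the succinate and NADH dehydrogenases and all 15 of the ATP synthase. Their median differences were −0.42, −0.50, −0.66 and −0.39, and 2, 1, 1 and 3 of their genes had an unadjusted p under 0.05. In level, the I14 medians were still above DBY8268 (0.83, 0.84, 0.29 and 0.35), and those of the other strains were higher (1.16, 1.33, 0.88 and 0.67). QCR10 of the bc1 complex had the lowest difference of its list (−1.28, adjusted p = 0.0761), and INH1, the inhibitor of the ATP synthase, that of the ATP synthase list (−1.25, adjusted p = 0.374). On arrays 1, 2 and 3 of I14, QCR10 had −0.60, 0.69 and −0.16 and INH1 had −0.63, 0.83 and 0.85, so that array 1 was the lowest for both. Without array 1 the 4 medians were −0.24, −0.34, −0.55 and −0.23, and with arrays scaled to the same spread −0.10, −0.23, −0.62 and −0.24. Genes of trehalose and glycogen metabolism had a median difference of −0.57 (−0.33 without I14 array 3), with 15 of 17 below the mean of the others, no call and 4 at an unadjusted p under 0.05. Purine synthesis genes were above the mean of the others in 15 of 19 cases, with a median of 0.37 (0.24 without I14 array 1), no call and none at an unadjusted p under 0.05. Ribosomal protein genes had a median of 0.12 and no call among 132, with 103 above the mean of the others and 2 at an unadjusted p under 0.05. Without I14 array 2 their median was −0.02. For orientation, 3.58% of all genes were higher and 7.46% lower at an unadjusted p under 0.05. Of all 5497 genes tested, 2573 lay above the mean of the others and 2923 below it. Genes of a list can vary together and are not independent measurements.

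Among genes just outside the threshold, the aquaporin gene AQY2 and the adjoining frame YLL053C had 4.76, 4.93 and 4.33 and 4.54, 4.77 and 4.37 in I14, against means of 2.40 and 1.96 (adjusted p of 0.0477 and 0.0147). Other strains spanned −1.15 to 6.37 for AQY2, so I14 was among the highest without standing apart. HXT2, a hexose transporter, had 2.32, 1.70 and 1.62, against 0.70 (adjusted p = 0.025), and GDH1, the NADP-dependent glutamate dehydrogenase, had a mean of 1.88 against 0.98 (adjusted p = 0.0248). UPC2, an activator of sterol genes, had 0.62, 0.28 and 0.41, against −0.52 (adjusted p = 0.0142). The 25 tested genes of ergosterol synthesis had a median difference of 0.19 from the other strains (0.08 and 0.11 without I14 arrays 1 and 2). None was called and 2 were higher at an unadjusted p under 0.05, against 3.58% of all genes.

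Against DBY8268 itself, 364 of 5651 genes were called in I14 (6.44%), with 111 higher (1.96%) and 253 lower (4.48%), and 235 to 246 when 1 I14 array was left out. Of the 35 genes that differed from the other strains, 31 were among them. The exceptions were PHO89, ENA1, PRM8 and COT1, in which the other strains were on average below the laboratory strain and I14 was not called against it. The largest positive ratio was that of CTR3, a copper transporter, with 5.97, 5.36 and 5.13, and the other strains shared it (mean 5.09). FRE4, a ferric reductase of the iron regulon, had 4.36, 4.87 and 4.80, against 2.71 in the other strains (difference 1.97, adjusted p = 0.128). Among genes with a value on all 3 I14 arrays, the most negative mean ratio was that of the asparaginase gene ASP3-2, with −7.88, −6.93 and −6.67, and again the other strains had nearly the same mean (−6.81). Its copy ASP3-1, with values on 2 arrays, averaged −7.34. The 4 ASP3 copies cannot be told apart on the array. Of the Ty genes, 75 of 80 were lower in I14 than in DBY8268, with a median of −4.35, as were 8 of 8 Y' helicases. Of 25 tested genes of ergosterol synthesis 12 were higher, with a median of 0.89, against 0.64 in the other strains on average. HAP1, the activator of sterol and respiratory genes that carries a Ty insertion in S288c, had −1.53, −1.13 and −0.92 in I14 and a mean of −1.79 in the others. It was called lower in I14 than in DBY8268 (adjusted p = 0.00473), and the difference from the others was not called (0.59, adjusted p = 0.48). The copper metallothionein genes CUP1-1 and CUP1-2 averaged −0.74 and −0.84 in I14 and −1.41 and −1.70 in the other strains, with no call in either comparison.

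Genes that depend on mating type were used to check what kind of cells the label I14 stood for, since a haploid strain set against a diploid shows strong positive ratios. In I14 the a-specific genes had a median of −0.47 over 6 of 7 genes with a value. A list of haploid-specific genes and genes of the mating-type loci had a median of −0.51 over 15 of 19. That list included MATALPHA1, MATALPHA2, HMLALPHA1 and HMRA1, and its members FUS1, FUS3, FAR1 and HO had no value in I14. In RM11a the a-specific median was 6.18, and in YJM789 the alpha-specific median was 7.44. Of the alpha-specific genes, STE3, the receptor for a-factor, was at 3.56 and 4.18 on 2 I14 arrays, while MF(ALPHA)1, MF(ALPHA)2 and SAG1 were at 0.70, −0.06 and −0.26. MATALPHA1 was at −1.94, −0.76 and −0.55 in I14, against a mean of −0.04 (adjusted p = 0.0142). The haploid pattern of RM11a and YJM789 was thus not present in I14 as a whole, with STE3 as the exception.

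How close I14 was to the typical strain depended on the measure. When every strain was compared in the same way with the mean of its other 16, I14 had the fewest genes called, 35, against 56 in SB, 60 in YPS163 and up to 544 in YJM789 (median of the other strains 116.5). By the root mean square distance over 3822 genes measured in all strains, I14 was the fourth closest, at 0.373, behind B1 (0.337), Y12 (0.346) and YPS163 (0.364). Single I14 arrays lay at 0.487, 0.405 and 0.428. After the part expected from array error was subtracted, I14 stood at 0.333, the eighth of 17, and Y12 was closest at 0.169. No test was made of these orders.

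**Figure D5:**
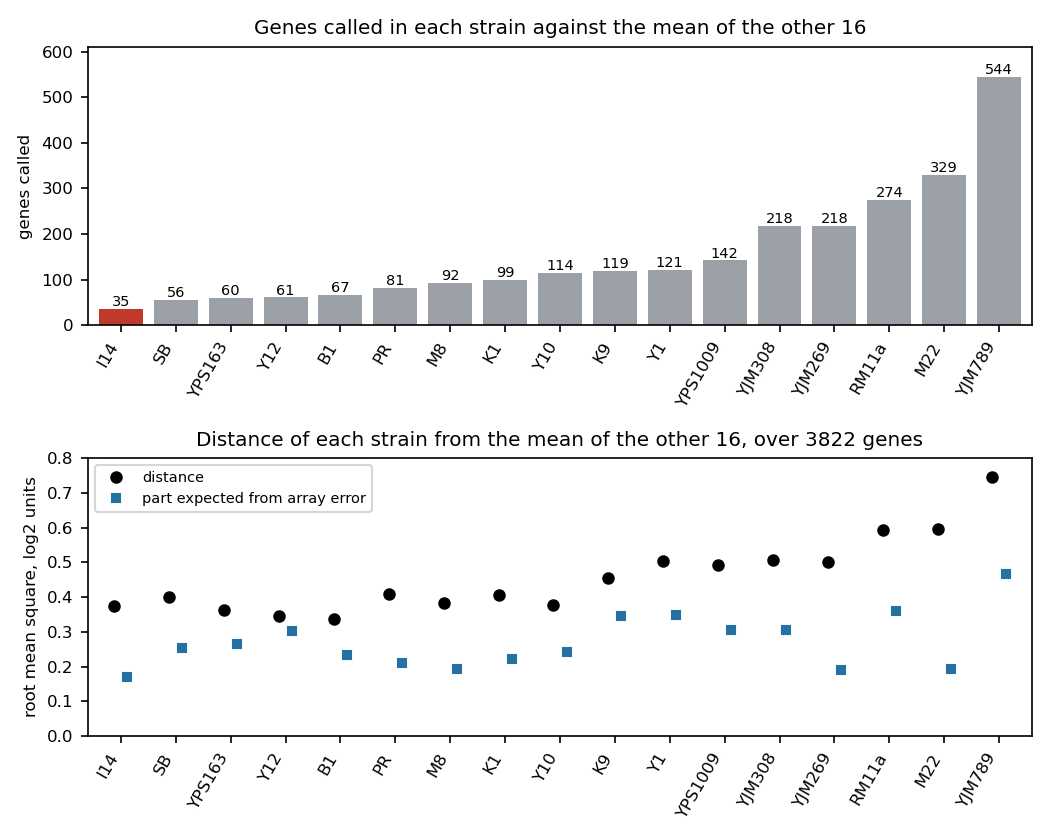
Upper panel, number of genes called in each strain against the mean of the other 16, with I14 in red and the other strains in rising order. Lower panel, root mean square distance of each strain from the mean of the other 16 in log2 units (black) and the part expected from array error (blue), for I14 at 0.373 and 0.170.

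Strain by strain, I14 differed least from M8, with 8 of 5589 genes called (0.143%, 0.107% higher and 0.0358% lower), then from PR with 14 (0.252%) and YPS163 with 20 (0.364%), and most from YJM789 with 529 (10.8%). The median over 16 strains was 95 genes, and 57 without I14 array 3. The root mean square difference was also smallest for M8 (0.348). By that measure YPS163 (0.434) and K1 (0.461) came before PR (0.471). I14 array 3 shared its slide with an M8 array, array 2 with a YPS163 array and array 1 with a YPS1009 array (59 genes called, 1.06%). The part of slide sharing in the result was not tested. PR shared no slide with I14. The 8 genes that separated I14 from M8 were YAR066W, ENA1, MST28, MST27, SDL1 and VTH1, which were higher in I14, and SMU2 and AI1, which were lower. SDL1 had 3.46, 3.31 and 3.11 in I14 and 0.47, 1.06 and 0.58 in M8. VTH1, a homologue of a vacuolar sorting receptor gene near the left end of chromosome IX, had 0.50, 0.62 and 0.35 in I14 and −1.59, −1.06, −1.26 and −1.85 in M8. SDL1, SMU2 and ENA1 were called against PR as well, together with the mitochondrial intron frames AI4 (−0.12 in I14, −7.15 in PR) and AI5_BETA (−0.58 and −6.51) and the silencing gene SIR2 (0.41 and −0.99). Against YPS163 the list again held SDL1 and SMU2, together with ZRT1, PLB1, PLB2, GRE2, PRX1 and COS1, a subtelomeric gene with 0.86, 1.04 and 0.80 in I14 and −3.63, −3.50, −3.48 and −3.17 in YPS163. SDL1 and SMU2 were thus called against each of these 3 strains.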

How the data were processed

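The authors hybridized amino-allyl labelled cDNA of each strain with that of DBY8268 to spotted arrays of oligonucleotides designed on S288c, kept unflagged spots above a minimum pixel correlation and mean-centred each array by region. The deposited values are log2 ratios, 1 per gene and array, and were used as deposited. Their direction is strain over DBY8268, also on the 18 arrays with reversed dyes. Each array held 3393 to 5897 values (median 5305), and 19.1% of all values were missing. Spot intensities were not used here, and the number of arrays limits the precision (median standard error of a difference 0.254). The table held 6264 genes, of which 5824 matched R64, used for symbols and gene order.

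All 54 arrays on 30 slides were fitted with 1 coefficient per strain in limma 3.58.1 (R 4.3.3; least squares per gene, moderated variance with 3.53 prior degrees of freedom). A gene needed at least 2 I14 values and values in at least 12 of 16 other strains, and 5497 genes passed. On simulated data for this comparison with 5497 genes, 50 of 100 genes changed by 1 and 90 of 100 changed by 2 log2 units were recovered, with 3 false calls. In the simulation, unchanged genes of I14 sat exactly at the mean of the other strains. Every gene had the same spread between strains, and array errors were independent. The measured strains differ more widely in many genes, so these counts do not give the reliability of the calls reported here. The genes to be named were all called genes, those among the 10 largest ratios each way over DBY8268, called or extreme members of the lists described and a few fixed genes (HAP1, CUP1, ENA, ASP3 and mating genes). Other genes were chosen after their values were seen, such as neighbours, mitochondrial genes and genes called at 0.05 or against single strains. The members, the 48 named lists and 3 lists from patterns (Ty genes by length of unnamed genes) were chosen with earlier results of these data known. Replicate numbers were not taken as pairs of arrays. Alternatives covered centring, scaling, slide, slide series, dye, missing values, single arrays, strains in the mean and the variance.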

Additional observations from a re-analysis of the deposited data

Results flagged for a closer look

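In 11 genes I14 was called on the side of DBY8268 opposite to the mean of the other strains, with a called difference from that mean. The side of that mean was not itself tested. It lay close to DBY8268 in genes such as YHR214W (−0.07), SOK2 (−0.08), ZRT1 (−0.10), ARA2 (0.12) and PRY2 (0.16). Other strains could share the side of I14, as for ZRT1, whose other strain means ran from −2.64 in K1 to 2.67 in PR. Higher in I14 were YHR214W (3.98), ZRT1 (3.06), YEL073C (2.38), MST27 (2.14), MST28 (2.14), SRP40 (1.34), AAC3 (1.32) and SOK2 (0.96). Lower in I14 were PRY2 (−1.02), ARA2 (−1.17) and YBL029C-A (−1.60). SMU2 (−2.75) is listed for lying outside the spread of the other strains. I14 groups of 3 arrays were too small to look for a single array far from the others.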

How the results depend on the processing

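Every one of the 35 called genes kept its direction in each alternative that tested it. The count of 35 changed to 131 with arrays scaled to the same spread (39 higher, 92 lower, against 18 and 17), to 74 with slide series as a block, to 89 at an adjusted p of 0.05, and to 79 without M8, PR and YPS163, an alternative chosen after seeing the data. With the replicate number as a block it was 58 (25 higher, 33 lower), with all 35 among them. Same-numbered arrays did not deviate together in all strains (median r of 0.07, 0.09 and 0.19 for numbers 1, 2 and 3). For arrays of other numbers the median r was lower (−0.04, −0.07 and −0.07). With the same number, r was over 0.1 in 6, 6 and 11 of 16 strains. The numbers were not taken as pairs in the main fit. Without 1 I14 array the count was 8 to 14 (12 without array 1, 8 without array 2, 14 without array 3), all of them among the 35. With the variance taken from the I14 arrays and the spread of strains alone, 0 genes were called by limma's moderated variance (864 at an unadjusted p under 0.05, all 35 among them, smallest adjusted p = 0.291). ZRT1, SDL1, YLR179C, PRM8, MST27, GRE2, SMU2 and YER186C were lost under that alternative only. PHO89, ENA1 and COT1 were also lost with scaled arrays. Without the haploid strains 25 of the 35 were called, and PHO89, ENA1, COT1, SOK2, PRY2, ELO1, NCE102, YBL107W-A, YJR027W and IMP21 were lost. Against the median of the strains 32 of the 35 were called, and ENA1, YIL165C and YMR051C were lost. Genes outside the spread of strains numbered 0 in genes complete on all I14 arrays, which leave SMU2 out, and 0 to 1 without 1 array. Against DBY8268 the count of 364 was 592 with scaled arrays and 235 to 246 without 1 array. The median of 95 genes over single strains was 144 at an adjusted p of 0.05 and 57 to 64.5 without 1 array. The distance of 0.373 was 0.485 with scaled arrays. Calls in gene lists, 13, were 57 with scaled arrays, 8 without the haploid strains and 2 to 4 without 1 array. The causes were not tested. No chromosome was called under any alternative run for chromosomes.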
